A study of Homo sapiens with 12 samples.

Results

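Transcript levels of KLF2 and of 8 receptors that direct lymphocyte homing and positioning were described in 3 human cell lines of mantle cell lymphoma, which is a cancer of B cells, with and without a block of gamma-secretase. The 9 genes were taken by name (KLF2, S1PR1, ITGB7, ITGA4, GPR183, CCR7, CCR6, CXCR4 and CXCR5) out of 19775 genes named on the array, and all 16 of their probe sets out of 54675 were used. All 9 were measured. KLF2 and CXCR5 had 2 probe sets each, CXCR4 had 3, ITGA4 had 4 and the other 5 genes had 1. Where a gene had several, the one with the highest mean of all 12 arrays stood for it. The lines were Mino, grown in 15% serum, and Rec-1 and SP-49, both grown in 10% serum, so the serum went with the line. Each was kept for 24 h with 0.1% DMSO alone (Mock) or with 1 µM compound E (GSI), an inhibitor of gamma-secretase, the protease that releases the active part of Notch receptors. Each of the 6 groups had 2 arrays, 12 in all, and their number limits the precision. Nothing in the labels says whether the 2 arrays of a group came from separate cultures, so the p-values reflect the spread of these samples alone, and that spread may be technical. Values are on the log2 scale, where a difference of 1 unit is a doubling. Over all probe sets they ran from 0.578 to 12.8 with a median of 1.99. The lowest values are likely mostly background, which was not measured, so differences that end there may be understated.

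Lymphocytes circulate between blood and lymphoid tissue by switching such receptors on and off. KLF2 is a zinc-finger transcription factor of quiescent lymphocytes. In T cells it drives transcription of S1PR1, the sphingosine-1-phosphate receptor through which cells leave lymphoid organs, and in B cells it is known for its link to ITGB7 and to homing to the gut. ITGB7 and ITGA4 encode the beta and alpha chains of the gut homing integrin, and ITGA4 also pairs with ITGB1. GPR183 senses oxysterols and places B cells at the outer follicle, CXCR5 draws them into the follicle, CCR7 draws them to the T-cell zone, CCR6 marks memory and mucosal B cells, and CXCR4 holds cells in the marrow and in the germinal centre dark zone.

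The DNA just before the start of 5 of these genes is shown because KLF2 and GPR183 carried the largest rises in level, ITGA4 the fall, and S1PR1 and ITGB7 are the genes most often tied to KLF2. The sequences are from RefSeq on build GRCh38.p14, 5′ to 3′ on the strand of the gene, up to 250 bases and ending at the base before the annotated gene start. Capitals mark CACCC or its reverse complement GGGTG, the core of sites bound by Kruppel-like factors, and TGGGAA or TTCCCA, the core of sites bound by RBPJ, the DNA-binding partner of Notch. CACGTG, the E-box bound by MYC, was searched too and was in none of the 5, and no marked matches overlapped. KLF2 lies at chr19:16324826-16328685 on the plus strand, and the 250 bases before it (chr19:16324576-16324825) were 80.0% G and C and held none of the 3 motifs. S1PR1 lies at chr1:101236899-101242313 on the plus strand, and its shorter window of 130 bases (chr1:101236769-101236898) held 1 CACCC, 22 bases before the start. ITGB7 lies at chr12:53191323-53207251 on the minus strand, and its window (chr12:53207252-53207501) held CACCC 3 times, at 103, 72 and 46 bases before the start. GPR183 lies at chr13:99294539-99307399 on the minus strand, and its window (chr13:99307400-99307649) held 1 GGGTG at 83 bases and 1 TTCCCA at 160 bases before the start. ITGA4 lies at chr2:181457205-181538940 on the plus strand, and its window of 69 bases (chr2:181457136-181457204) held none.
KLF2: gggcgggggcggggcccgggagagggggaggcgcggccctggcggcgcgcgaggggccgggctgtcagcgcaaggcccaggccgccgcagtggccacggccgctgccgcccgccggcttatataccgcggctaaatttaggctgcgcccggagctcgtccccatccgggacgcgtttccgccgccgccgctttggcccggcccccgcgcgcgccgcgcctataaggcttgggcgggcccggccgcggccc
S1PR1: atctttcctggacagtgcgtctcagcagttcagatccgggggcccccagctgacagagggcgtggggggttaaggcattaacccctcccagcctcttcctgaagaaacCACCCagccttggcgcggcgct
ITGB7: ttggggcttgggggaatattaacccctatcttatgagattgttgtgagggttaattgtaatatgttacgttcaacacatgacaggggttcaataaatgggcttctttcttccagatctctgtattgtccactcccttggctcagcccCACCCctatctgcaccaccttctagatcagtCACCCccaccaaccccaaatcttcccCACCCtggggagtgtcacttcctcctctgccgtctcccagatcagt
GPR183: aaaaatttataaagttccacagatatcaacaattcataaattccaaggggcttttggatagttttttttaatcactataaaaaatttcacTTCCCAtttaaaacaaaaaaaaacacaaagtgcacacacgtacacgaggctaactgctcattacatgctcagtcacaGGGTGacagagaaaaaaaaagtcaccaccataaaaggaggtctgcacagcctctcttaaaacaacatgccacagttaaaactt
ITGA4: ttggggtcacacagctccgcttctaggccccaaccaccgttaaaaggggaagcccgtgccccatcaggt
Of 35116 RefSeq promoters, 54.7% held CACCC or GGGTG in a window of 250 bases, 20.8% held TGGGAA or TTCCCA and 6.3% held CACGTG. In windows of 130 bases, the length for S1PR1, the shares were 35.6%, 11.1% and 4.1%. In windows of 69 bases, the length for ITGA4, they were 20.9%, 5.7% and 2.6%. These shares are for the bases next to the start given in the promoter set. The S1PR1 and ITGA4 windows end at the annotated gene start, farther upstream, so they match these shares in length and not in position. A match is a description of these letters and not evidence of binding. The other genes lie at chr17:40553769-40565472 (CCR7), chr6:167111795-167139141 (CCR6), chr2:136114349-136118149 (CXCR4) and chr11:118883892-118897787 (CXCR5), all on GRCh38.p14.

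The labelled cell type was checked against markers. All 8 measured markers of B cells and mantle cell lymphoma, among them MS4A1, CD79A, PAX5, CCND1 and SOX11, were at or above the median of all values in every group, with array means from 7.15 to 8.07. Array means of 9 T-cell markers were 1.89 to 2.46, of NK-cell markers 2.12 to 2.60, of endothelial markers 2.03 to 2.42, of stromal markers 2.09 to 2.39 and of myeloid markers 1.39 to 1.68. The median alone does not set the lists apart. In each group 5 of 7 endothelial, 4 or 5 of 7 stromal and 3 or 4 of 7 NK-cell markers were also at or above it, and 0 of 8 myeloid markers. Single markers departed from these means. PRF1 of the NK-cell list was 6.92 to 7.28 in Mino and CD7 of the T-cell list 3.87 to 4.99 there. PECAM1 of the endothelial list was 3.33 to 4.15 in Rec-1. CD5 of the mantle cell lymphoma list was 2.23 to 2.96 in Rec-1 and 2.55 to 2.94 in SP-49, against 3.83 to 4.82 in Mino. HES1, a repressor that Notch switches on, fell with GSI in Rec-1 from 5.86 and 5.67 to 2.23 and 1.70, and in SP-49 from 6.11 and 5.77 to 2.53 and 2.33. In Mino HES1 was near the low end in both groups (a change of -0.07). MYC fell in Rec-1 by 1.53 and in SP-49 by 1.55 and had a change of 0.13 in Mino. The MYC call in SP-49 was lost without SP-49 Mock replicate 1 (adjusted p = 0.088), SP-49 Mock replicate 2 (0.0814) or SP-49 GSI replicate 2 (0.0885).

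With GSI, 3 of the 9 genes changed in Rec-1 and none passed the test in Mino or SP-49. Each change is the GSI mean minus the Mock mean, tested with limma over all genes at a Benjamini-Hochberg adjusted p under 0.05. In Rec-1, KLF2 and GPR183 rose and ITGA4 fell, where 2.15% of all genes rose and 3.62% fell. The median change of the 9 genes in Rec-1 was 0.42, against 0.01 for all genes. The 9 genes were chosen with earlier results of these data known, so these comparisons with all genes are descriptions and not tests of the group. In Mino 0 of 9 were called either way, as for all genes (0% higher and 0% lower), although 3 of the 9 and 969 of all genes had an unadjusted p under 0.05. In SP-49 limma also called 0 of 9, where 0.0202% of all genes rose and 0.172% fell. There 2 of the 9, CXCR5 and ITGA4, had an unadjusted p under 0.05, and with an intensity trend and a robust prior 1 of them, ITGA4, passed. Both GSI arrays lay beyond both Mock arrays for 8 of the 9 genes in Rec-1, 4 in Mino and 6 in SP-49. Over all genes this held for 45.3%, 33.1% and 42.5%. The 3 calls in Rec-1 used the spread of all 6 groups, and with the 4 Rec-1 arrays alone 0 of 9 passed. In Rec-1 the difference between 3′ and 5′ GAPDH control probe sets, which is used to judge RNA quality, was larger on the GSI arrays (0.59 and 0.49) than on the Mock arrays (0.41 and 0.37), and its part in the Rec-1 results was not tested. The same difference for ACTB overlapped in Rec-1, where the GSI arrays had 2.29 and 1.92 and the higher Mock array lay between them. In Mino both differences were larger on the GSI arrays than on the Mock arrays. They were 0.31 and 0.39 against 0.26 and 0.25 for GAPDH and at or above 1.94 against 1.73 and 1.79 for ACTB. In SP-49 both overlapped, with 0.345 and 0.444 on the GSI arrays and 0.350 and 0.336 on the Mock arrays for GAPDH.

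**Figure D1:**
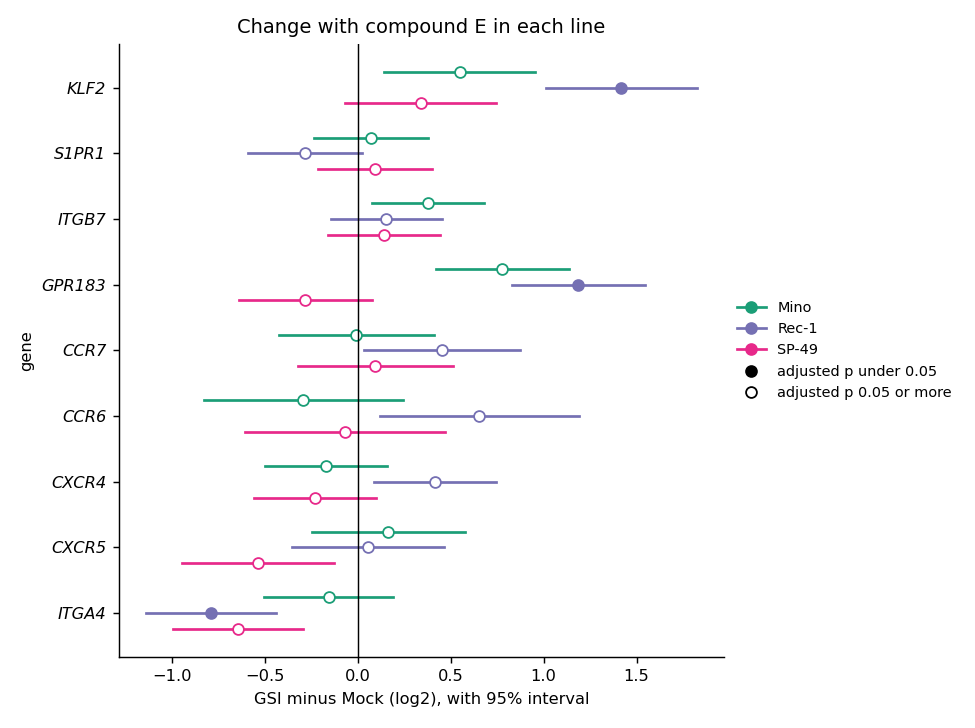
Change in log2 level, GSI minus Mock, of each of the 9 genes in Mino, Rec-1 and SP-49 (horizontal axis), with the 95% interval of limma for a single gene as a bar and filled points for changes past the adjusted threshold. KLF2 (1.42) and GPR183 (1.19) stand to the right and ITGA4 (-0.79) to the left in Rec-1, and no point is filled for Mino or SP-49.

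KLF2 had its highest level in Rec-1 after GSI. In Rec-1 its values were 4.23 and 4.04 on the Mock arrays and 5.74 and 5.36 on the GSI arrays. In Mino they were 3.73 and 3.45 with Mock and 4.25 and 4.02 with GSI, and in SP-49 they were 4.16 and 3.75 with Mock and 4.36 and 4.22 with GSI. In each line both GSI arrays were above both Mock arrays, and the 2 Rec-1 GSI arrays were above the other 10 arrays. The Rec-1 mean went from 4.13 ± 0.14 to 5.55 ± 0.27 (SD, n = 2), a rise of 1.42 (95% interval 1.01 to 1.82), or 2.67-fold, with a limma adjusted p of 0.00139. The changes in Mino (0.55, interval 0.14 to 0.95, adjusted p = 0.929) and SP-49 (0.34, interval -0.07 to 0.74, adjusted p = 0.676) did not pass. The differences between lines in this change did not pass either. The Rec-1 change exceeded that of Mino by 0.87 (interval 0.30 to 1.44, limma adjusted p = 0.151) and that of SP-49 by 1.08 (interval 0.51 to 1.65, limma adjusted p = 0.122). The second KLF2 probe set, 226646_at, lay between 2.07 and 2.81 on all arrays, near the median of all values. Its changes were 0.04 in Mino, 0.07 in Rec-1 and 0.30 in SP-49, none past the threshold over all probe sets, so the rise rests on probe set 219371_s_at. Leaving out any 1 array kept the Rec-1 rise on 219371_s_at between 1.23 and 1.61. As the mean of both KLF2 probe sets the Rec-1 rise was smaller, at 0.74, and still passed the threshold.

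Before treatment, KLF2 was in the order Rec-1, SP-49, Mino, with Mock means of 4.13 ± 0.14, 3.96 ± 0.28 and 3.59 ± 0.20 (SD, n = 2). Only the ends of this order differed past the threshold. Rec-1 was above Mino by 0.55 (limma adjusted p = 0.0492), and this call was lost when any of 8 of the 12 arrays was left out (KLF2 adjusted p up to 0.275, without Mino Mock replicate 2). Neighbours in the order, Rec-1 and SP-49 (limma adjusted p = 0.575) and SP-49 and Mino (limma adjusted p = 0.192), did not pass.

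**Figure D2:**
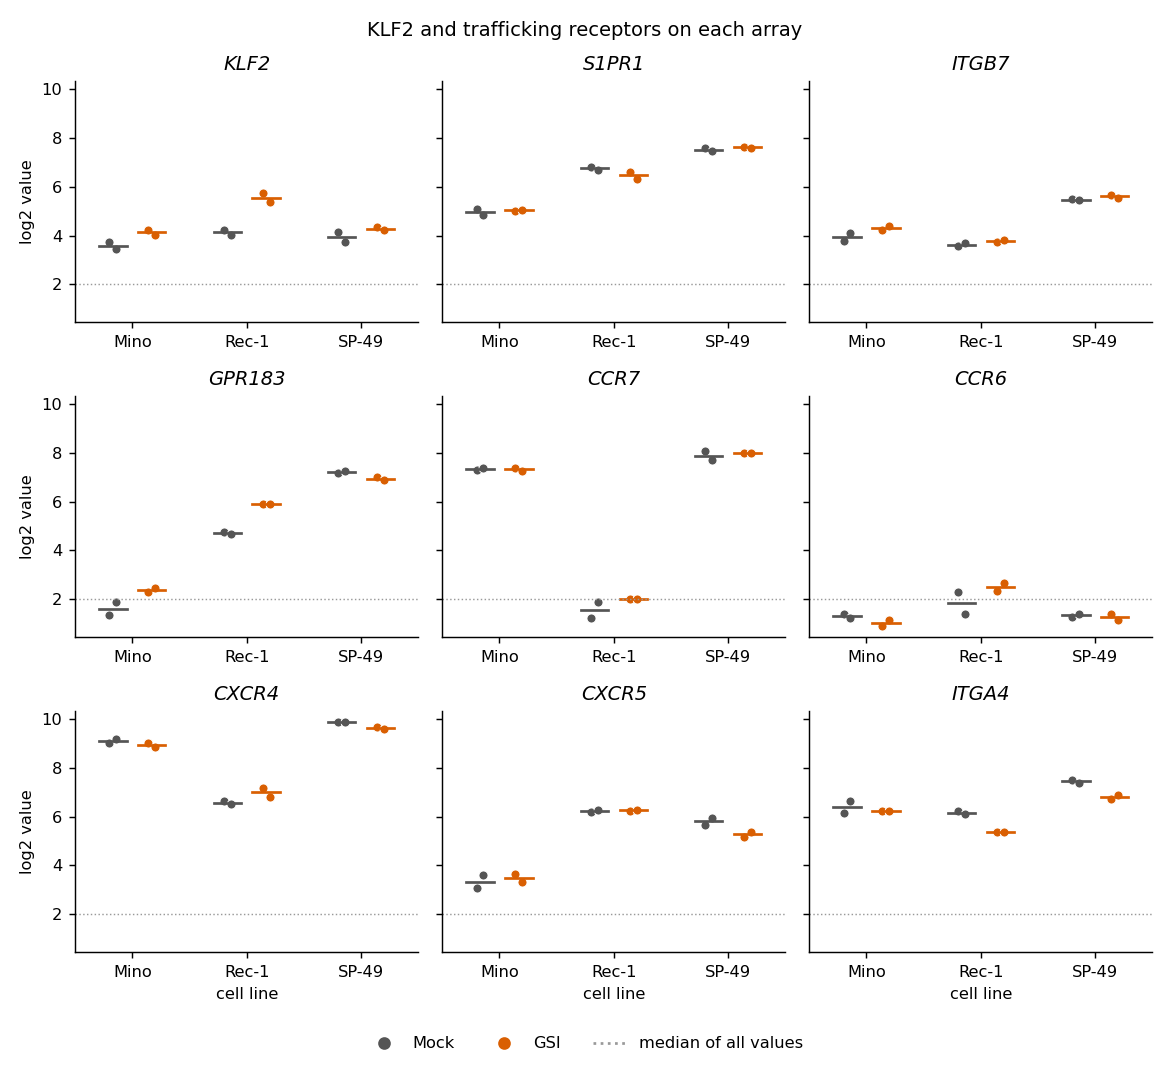
Log2 level of each of the 9 genes on every array (vertical axis), by line and treatment, with 1 point per array (grey for Mock, orange for GSI), a bar at each mean of 2 and a dotted line at the median of all values. The 2 Rec-1 GSI arrays are highest for KLF2 (5.74 and 5.36), CCR7 is low only on the 4 Rec-1 arrays (2.03 at most), and GPR183 falls into separate ranges in the 3 lines.

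S1PR1, the egress receptor, did not pass the test with GSI in any line, including Rec-1, where KLF2 rose. Its Rec-1 values were 6.81 and 6.71 with Mock and 6.61 and 6.34 with GSI, with both GSI arrays lower. This change of -0.28 (interval -0.59 to 0.02, limma adjusted p = 0.305) did not pass. In Mino the values were 5.09 and 4.85 with Mock and 5.01 and 5.07 with GSI, and in SP-49 they were 7.61 and 7.45 with Mock and 7.64 and 7.59 with GSI. Both pairs overlapped, with changes of 0.07 and 0.09. The lines themselves stood apart, in the order SP-49 (Mock mean 7.53 ± 0.11), Rec-1 (6.76 ± 0.07) and Mino (4.97 ± 0.17; SD, n = 2). Every step of this order passed the test. SP-49 was 1.70-fold above Rec-1 (S1PR1 limma adjusted p = 0.00127) and Rec-1 was 3.46-fold above Mino (limma adjusted p = 2.52e-06).

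ITGB7, the beta chain of the gut homing integrin, was slightly higher on both GSI arrays than on both Mock arrays in every line, and no change passed. Its values were 3.79 and 4.09 with Mock and 4.25 and 4.39 with GSI in Mino. They were 3.57 and 3.68 with Mock and 3.73 and 3.83 with GSI in Rec-1, and 5.49 and 5.46 with Mock and 5.68 and 5.54 with GSI in SP-49. The changes were 0.38 (interval 0.08 to 0.68), 0.15 (interval -0.15 to 0.45) and 0.14 (interval -0.16 to 0.44), with limma adjusted p of 0.929, 0.611 and 0.866. SP-49 had the highest Mock level of ITGB7 at 5.47 ± 0.02, 2.89-fold above Mino (3.94 ± 0.21; SD, n = 2; limma adjusted p = 6.96e-06) and 3.59-fold above Rec-1 (3.63 ± 0.08; limma adjusted p = 1.25e-06). Mino and Rec-1, the lower neighbours, did not differ past the threshold (limma adjusted p = 0.13).

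ITGA4, the alpha chain, fell in Rec-1, and all 4 of its probe sets had negative changes in Rec-1 and in SP-49. On probe set 213416_at, which stood for the gene, Rec-1 had 6.24 and 6.09 with Mock and 5.37 and 5.38 with GSI, and SP-49 had 7.51 and 7.38 with Mock and 6.71 and 6.89 with GSI. Mino had 6.16 and 6.63 with Mock and 6.24 and 6.23 with GSI. The groups were separate in Rec-1 and SP-49 and overlapped in Mino. The Rec-1 mean went from 6.16 ± 0.11 to 5.37 ± 0.01 (SD, n = 2) and fell by 0.79 (interval -1.14 to -0.44), 1.73-fold lower, with a limma adjusted p of 0.0146. The SP-49 change of -0.65 (interval -0.99 to -0.30, limma adjusted p = 0.183) and the Mino change of -0.16 (limma adjusted p = 1) did not pass. The Rec-1 call of ITGA4 was lost without Rec-1 Mock replicate 1 (adjusted p = 0.116), Rec-1 Mock replicate 2 (adjusted p = 0.0586) or Rec-1 GSI replicate 2 (adjusted p = 0.0523).

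Probe set 205884_at of ITGA4 fell in both of these lines. It went from 4.69 and 4.70 to 3.84 and 3.58 in Rec-1 and from 6.14 and 6.04 to 4.83 and 4.97 in SP-49, with no overlap in either line. The falls were 0.99 in Rec-1 (limma adjusted p = 0.00362 over all probe sets) and 1.19 in SP-49 (limma adjusted p = 0.0107). The SP-49 fall on this ITGA4 probe set lost its call without SP-49 Mock replicate 1 (adjusted p = 0.186), SP-49 Mock replicate 2 (0.108) or SP-49 GSI replicate 2 (0.102). The remaining ITGA4 probe sets did not pass, with changes in Rec-1 of -0.62 (205885_s_at) and -0.17 (243366_s_at, where the arrays overlapped) and in SP-49 of -0.72 and -0.78. The change of ITGA4 did not differ past the threshold between any of the lines (Rec-1 minus Mino -0.63, limma adjusted p = 0.23, SP-49 minus Mino -0.49, limma adjusted p = 0.698, and Rec-1 minus SP-49 -0.14, limma adjusted p = 0.878). In Mock arrays ITGA4 was highest in SP-49 (7.44 ± 0.10), 2.07-fold above Mino (6.40 ± 0.33; SD, n = 2; limma adjusted p = 0.000403) and 2.43-fold above Rec-1 (limma adjusted p = 6.99e-05), and Mino and Rec-1 did not differ past the threshold (limma adjusted p = 0.365).

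**Figure D3:**
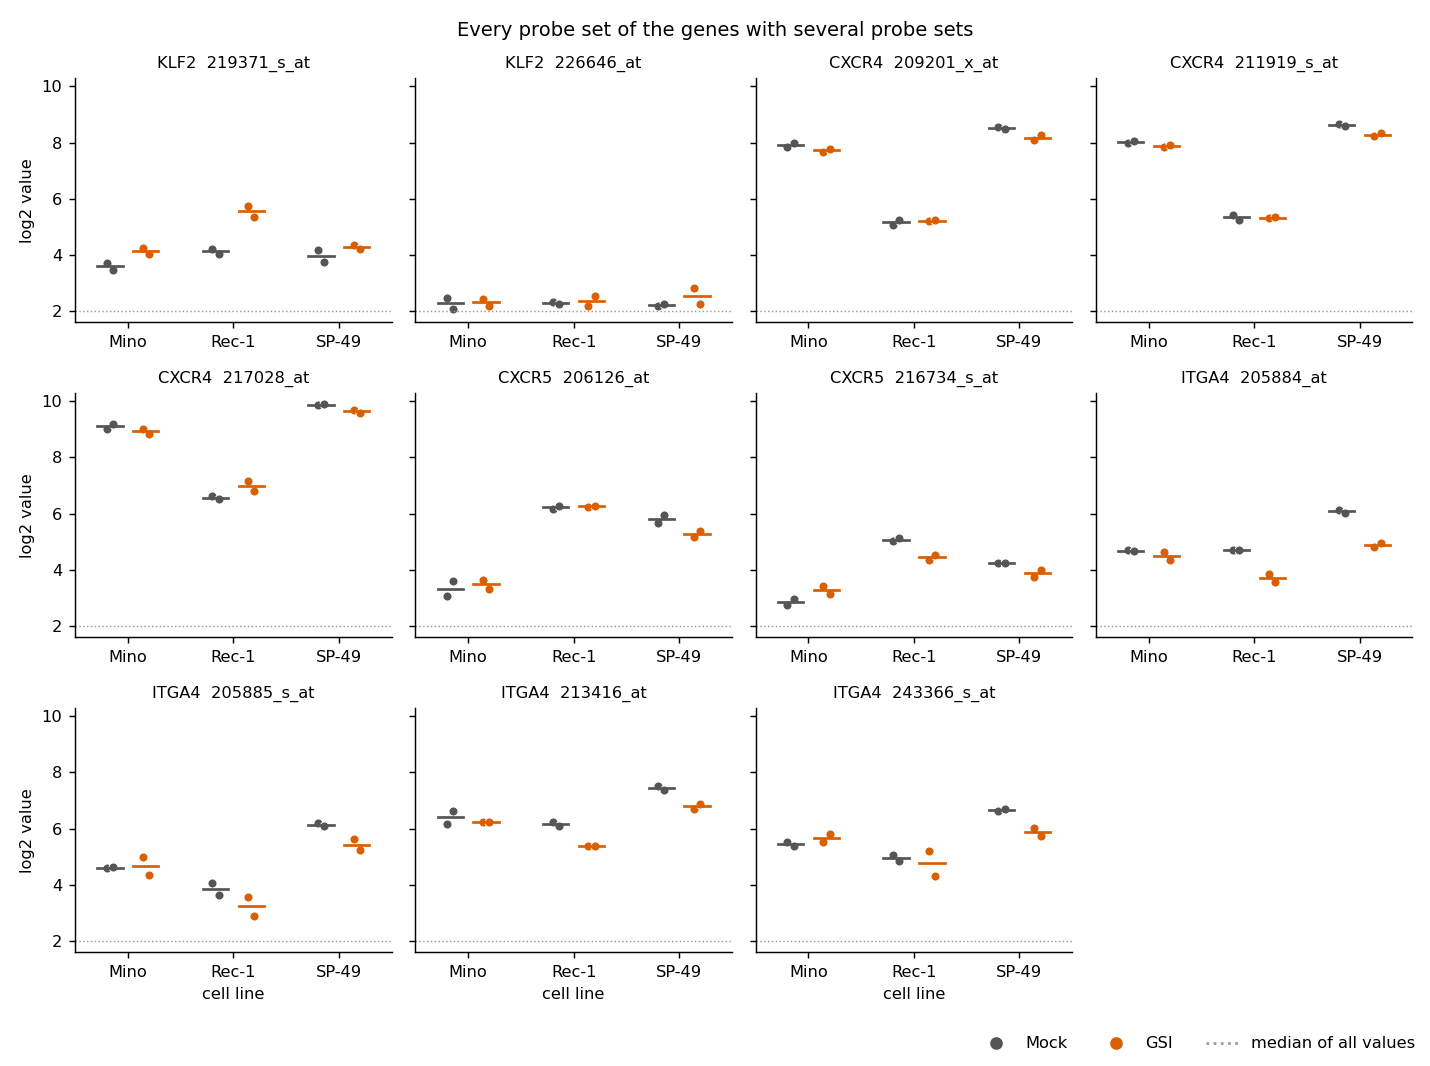
Log2 value on every array (vertical axis) of each probe set of KLF2, CXCR4, CXCR5 and ITGA4, by line, with grey points for Mock arrays, orange points for GSI arrays, a bar at each mean of 2 and a dotted line at the median of all values. Of the KLF2 probe sets, 226646_at stays near the dotted line while 219371_s_at is highest on the Rec-1 GSI arrays (5.74 and 5.36), and the GSI mean is below the Mock mean in Rec-1 and SP-49 on all 4 ITGA4 probe sets.

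GPR183, the oxysterol receptor, rose in Rec-1, and this was the only change among the 9 genes that differed between lines past the threshold. Its Rec-1 values were 4.76 and 4.66 with Mock and 5.89 and 5.91 with GSI. Mino had 1.35 and 1.87 with Mock and 2.31 and 2.46 with GSI, and SP-49 had 7.18 and 7.27 with Mock and 7.00 and 6.88 with GSI. Both GSI arrays were above both Mock arrays in Rec-1 and Mino and below them in SP-49. The Rec-1 mean went from 4.71 ± 0.07 to 5.90 ± 0.015 (SD, n = 2), a rise of 1.19 (interval 0.83 to 1.54), or 2.27-fold, with a limma adjusted p of 0.00199. It stayed past the threshold with any 1 array left out (1.13 to 1.24). The Mino change of 0.78 (interval 0.42 to 1.14, limma adjusted p = 0.58) began near the low end of the range and did not pass, and neither did the SP-49 change of -0.28 (interval -0.64 to 0.07, limma adjusted p = 0.702).

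The GPR183 change in Rec-1 exceeded that in SP-49 by 1.47 (interval 0.96 to 1.97, limma adjusted p = 0.0212), where 0.556% of all genes passed in this comparison, either way. With 1 array left out the GPR183 difference ran from 1.41 to 1.53, and it lost its call without either Mock array of Rec-1 or any of the 4 arrays of SP-49 (adjusted p from 0.0527 to 0.113). The differences of Rec-1 minus Mino (0.41, limma adjusted p = 0.478) and SP-49 minus Mino (-1.06, limma adjusted p = 0.303) did not pass. Comparisons of the same line share arrays. For the Rec-1 minus Mino difference 0 of the 9 genes were called and 4 had an unadjusted p under 0.05 in limma, where 1.43% of all genes were called. With an intensity trend and a robust prior 1 of the 9 passed there, CXCR4. For SP-49 minus Mino 0 were called, 2 had an unadjusted p under 0.05, and 0.0455% of all genes were called.

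GPR183 also differed between all 3 untreated lines. The Mock means were 7.22 ± 0.06 in SP-49, 4.71 ± 0.07 in Rec-1 and 1.61 ± 0.37 in Mino (SD, n = 2). SP-49 was 5.71-fold above Rec-1 (GPR183 limma adjusted p = 4.35e-07), and Rec-1 was above Mino by 3.10 on the log2 scale (limma adjusted p = 9.08e-08). SP-49 was above Mino by 5.61. The Mino Mock mean was under the median of all values, and background was not measured, so both differences from Mino may be understated. Over the 9 genes, 6 differed between Rec-1 and Mino in Mock arrays (4 higher and 2 lower in Rec-1), 6 between SP-49 and Mino (all higher in SP-49) and 6 between Rec-1 and SP-49 (all lower in Rec-1). Of all genes, 26.1%, 25.6% and 28.9% differed in these comparisons. Since each array holds the RNA of a whole culture, fewer cells that express a gene and less RNA of it per cell cannot be told apart.

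CCR7, the receptor for chemokines of the T-cell zone, was far lower in Rec-1 than in the other lines. Rec-1 had 1.25 and 1.87 with Mock and 1.99 and 2.03 with GSI, all at the low end of the range. Mino had 7.29 and 7.39 with Mock and 7.39 and 7.28 with GSI, and SP-49 had 8.08 and 7.71 with Mock and 7.99 and 7.99 with GSI. The 4 Rec-1 arrays were thus far below the other 8, and the GSI and Mock arrays overlapped in Mino and SP-49. In Mock arrays, CCR7 of Rec-1 was lower than that of Mino by 5.78 and than that of SP-49 by 6.34 on the log2 scale, with limma adjusted p of 2.36e-09 and 1.12e-09. SP-49 and Mino were neighbours at 0.55 apart (limma adjusted p = 0.0528), a difference that passed with each array centred on its median (CCR7 adjusted p = 0.0425) and under several other settings. The changes with GSI were -0.01 in Mino, 0.45 in Rec-1 (interval 0.04 to 0.87, limma adjusted p = 0.218) and 0.09 in SP-49, and none passed.

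CCR6 was near or below the median of all values in all 3 lines. Its arrays ran from 0.89 to 1.41 in Mino, from 1.41 to 2.68 in Rec-1 and from 1.14 to 1.40 in SP-49. Rec-1 had 2.28 and 1.41 with Mock and 2.32 and 2.68 with GSI, so the lower GSI array was only just above the higher Mock array. The changes of CCR6 were 0.65 in Rec-1 (interval 0.12 to 1.19, limma adjusted p = 0.166), -0.29 in Mino and -0.07 in SP-49, and none passed. Without Rec-1 Mock replicate 1, the higher of that group, the CCR6 change in Rec-1 was 1.09 (adjusted p = 0.0295). The Mock levels of CCR6 did not differ past the threshold between any of the lines (limma adjusted p from 0.156 to 0.972).

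CXCR4, the receptor for CXCL12, was high in Mino and SP-49 and lower in Rec-1 on all 3 of its probe sets. On the one that stood for the gene, Mino had 9.01 and 9.20 with Mock and 9.01 and 8.85 with GSI, Rec-1 had 6.63 and 6.52 with Mock and 7.18 and 6.80 with GSI, and SP-49 had 9.86 and 9.89 with Mock and 9.69 and 9.60 with GSI. Treatment groups touched in Mino and were separate in opposite directions in Rec-1 and SP-49. The changes of CXCR4 were -0.17, 0.42 (interval 0.09 to 0.74, limma adjusted p = 0.147) and -0.23 (interval -0.56 to 0.10, limma adjusted p = 0.745), and none passed. On the other probe sets the Rec-1 changes were 0.06 and -0.02, so the upward shift in Rec-1 was on 217028_at alone. Their SP-49 changes were -0.32 and -0.35, with both GSI arrays lower on each, and neither passed over all probe sets. CXCR4 in Rec-1 passed when quantile normalization was applied again (0.51, adjusted p = 0.0427) and with an intensity trend and a robust prior (adjusted p = 0.0146). In Mock arrays CXCR4 was in the order SP-49, Mino, Rec-1, and both steps passed, at 1.71-fold (limma adjusted p = 0.00212) and 5.76-fold (limma adjusted p = 2.31e-07).

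CXCR5, the follicle homing receptor, was higher in untreated Rec-1 and SP-49 than in untreated Mino. Its Mock means were 6.22 ± 0.06 in Rec-1, 5.81 ± 0.20 in SP-49 and 3.33 ± 0.38 in Mino (SD, n = 2). Rec-1 was 7.40-fold and SP-49 5.59-fold above Mino (limma adjusted p = 5.03e-07 and 1.77e-06). Rec-1 and SP-49 did not differ past the threshold on this probe set (0.41, limma adjusted p = 0.144), whereas on the second, 216734_s_at, Rec-1 was higher by 0.81 (limma adjusted p = 0.0019 over all probe sets). With GSI the 2 CXCR5 probe sets disagreed in Rec-1. On 206126_at the values were 6.18 and 6.26 with Mock and 6.25 and 6.29 with GSI, a change of 0.05. On 216734_s_at they were 5.01 and 5.12 with Mock and 4.34 and 4.54 with GSI, a fall of 0.63 (adjusted p = 0.0475 over all probe sets in limma), which lost its call in 10 of 12 fits with 1 array left out (CXCR5 adjusted p up to 0.239, without Rec-1 Mock replicate 2). In SP-49 both CXCR5 probe sets were lower on both GSI arrays, from 5.67 and 5.95 to 5.17 and 5.38 on the first, and neither change passed (-0.54, limma adjusted p = 0.4, and -0.38, limma adjusted p = 0.586). In Mino 206126_at overlapped (3.06 and 3.59 with Mock, 3.65 and 3.33 with GSI). There 216734_s_at was higher on both GSI arrays, from 2.76 and 2.96 to 3.44 and 3.14, a change of 0.42 that did not pass (limma adjusted p = 0.949). On 216734_s_at the CXCR5 change in Rec-1 minus that in Mino was -1.05 (limma adjusted p = 0.0572 over all probe sets).

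The wider machinery of trafficking was read from 8 lists of genes that act beside these 9. They named 128 genes, of which 121 were measured, and 18 of those were under the median of all values in every group. In Rec-1, 9 of the 121 rose and 1 fell, beside 2.15% and 3.62% of all genes, with a median change of 0.08 against 0.01. The lists were also chosen with earlier results of these data known, so this too is a description. In Mino and SP-49 limma called 0 of the 121, with 5 and 18 at an unadjusted p under 0.05, and with an intensity trend and a robust prior 0 and 1 were called. The count of rises in Rec-1 ran from 2 (without Rec-1 Mock replicate 2) to 11 with 1 array left out, and was 4 without Rec-1 Mock replicate 1. It was 14 with quantile normalization applied again, 5 with array weights and 0 from the 4 Rec-1 arrays alone. Genes called lower numbered 0 with quantile normalization, with array weights and from the 4 Rec-1 arrays alone. With each array centred on its median 7 rose and 2 fell, and with an intensity trend and a robust prior 12 rose and 2 fell. The Rec-1 arrays that parted on the GAPDH control are the same in these counts.

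Of 22 measured genes of integrin activation and motility, 4 rose in Rec-1, where 2.15% of all genes rose. That was the largest number of any of these lists, and this list also had the most measured genes. Its median change was 0.24, against 0.01 for all genes. APBB1IP, the adaptor that brings talin to integrins, went from 8.73 and 8.71 to 9.49 and 9.57, a rise of 0.81 (limma adjusted p = 0.00519) that held with any 1 array left out. WIPF1, which stabilises the actin regulator WASP, rose by 0.79 (limma adjusted p = 0.00662). Over all alternative settings the change went down to 0.45 for APBB1IP (limma adjusted p up to 0.0961) and 0.36 for WIPF1 (up to 0.134). VAV1, a signalling protein downstream of antigen receptors, rose by 0.84 (limma adjusted p = 0.0152), and RAC2, a small GTPase of blood cells, by 0.52 (limma adjusted p = 0.027). Without Rec-1 Mock replicate 2 the calls of WIPF1 (adjusted p = 0.0689), VAV1 (0.111) and RAC2 (0.164) were lost. Without Rec-1 Mock replicate 1 those of VAV1 (0.0749) and RAC2 (0.0978) were lost, and without Rec-1 GSI replicate 2 that of RAC2 (0.0917). Of 14 other homing adhesion receptors, 2 rose. ICAM3, an adhesion ligand of resting leukocytes, went from 7.02 and 7.21 to 7.90 and 7.92 (0.79, limma adjusted p = 0.00986), a call lost without Rec-1 Mock replicate 1 (ICAM3 adjusted p = 0.0967). ITGB1, the other partner of ITGA4, went from 7.17 and 7.22 to 7.92 and 7.61 (0.57, limma adjusted p = 0.0386), a call lost in 7 of 12 fits with 1 array left out. Over all alternative settings the ITGB1 change went down to 0.16 (limma adjusted p up to 0.443).

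Among 16 other Kruppel-like factors, none rose and 1, KLF13, fell in Rec-1 by 0.63 (limma adjusted p = 0.036), a call lost in 10 of 12 fits with 1 array left out and a change of -0.25 as the mean of the KLF13 probe sets. The list's median change in Rec-1 was -0.01. Of 10 measured inducers of KLF2, in the ERK5, MEF2 and FOXO pathways, 1 rose, MEF2C, a direct activator of KLF2 transcription in endothelium, from 6.37 and 5.92 to 6.92 and 6.76 (0.69, limma adjusted p = 0.0263). The MEF2C change was 0.46 without Rec-1 Mock replicate 2 (adjusted p = 0.198), its call was also lost without Rec-1 GSI replicate 1 (adjusted p = 0.0676), and as the mean of its probe sets it was 0.38 (adjusted p = 0.271). Of 14 sphingosine-1-phosphate receptors and enzymes, S1PR2, a receptor that confines B cells to the germinal centre, rose by 0.54 (limma adjusted p = 0.0349) from 3.52 and 3.60 to 4.26 and 3.94, a call lost in 7 of 12 fits with 1 array left out (S1PR2 adjusted p up to 0.182, without Rec-1 Mock replicate 1). Of 14 other chemokine receptors, CCR2 rose by 1.65 (limma adjusted p = 0.0193) from 1.74 and 1.89 to 4.24 and 2.69, with GSI arrays that differed from each other by more than the lower one differed from Mock. With 1 array left out the CCR2 change ran from 0.87 to 2.42, and it lost its call without Rec-1 Mock replicate 1 (adjusted p = 0.12) or Rec-1 Mock replicate 2 (adjusted p = 0.0899). None of 10 ligands and oxysterol enzymes and none of 21 genes of G-protein signalling passed limma in any line.

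**Figure D4:**
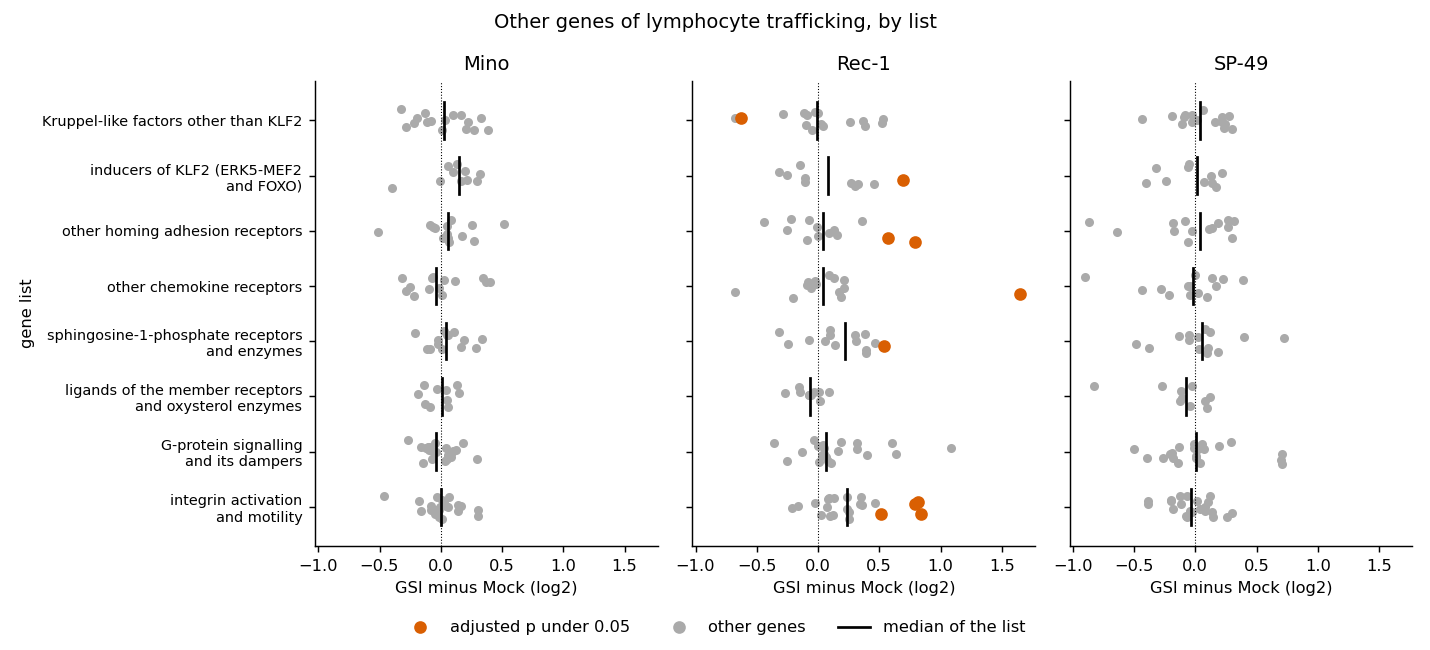
Change in log2 level, GSI minus Mock, of each measured gene in the 8 trafficking lists, by list and line, with 1 grey point per gene, orange where the change passed the adjusted threshold, and a line at each list's median. Orange points occur in Rec-1 only, 9 above 0 and 1 below, and the integrin activation and motility list has the highest Rec-1 median, 0.24.

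Markers of other cell types were set beside these results. In Rec-1 the T-cell gene CD3D went from 4.81 and 4.79 to 4.03 and 4.30, a fall of 0.63 (limma adjusted p = 0.0253) whose call was lost without Rec-1 Mock replicate 1 (CD3D adjusted p = 0.133), Rec-1 Mock replicate 2 (0.12) or Rec-1 GSI replicate 1 (0.0779), while CD2 was between 1.32 and 1.85 and CD3E between 1.89 and 3.17 there. Of the 9 T-cell markers, 3 to 5 were at or above the median of all values in a group. Of the 8 measured markers of B cells and mantle cell lymphoma, 2 rose in Rec-1, 0 fell and 6 did not pass, where 2.15% of all genes rose. Their median change was 0.29, against 0.01 for all genes. The B-cell receptor subunit CD79B rose in Rec-1 by 1.06 (limma adjusted p = 0.000792) and MS4A1 by 0.51 (limma adjusted p = 0.04). Among the other 6, Rec-1 arrays of PAX5 went down to 8.42 from a Mock mean of 8.87. Those of CD79A went up to 9.71 from a Mock mean of 9.07. The MS4A1 call was lost in 8 of 12 fits with 1 array left out (adjusted p up to 0.18, without Rec-1 Mock replicate 2), and CD79B had a change of 0.29 as the mean of its probe sets (adjusted p = 0.171). Array means of endothelial markers in Rec-1 were 2.24 to 2.31 with Mock and 2.38 to 2.42 with GSI. Those of stromal markers went from 2.20 to 2.27 with Mock to 2.28 to 2.39 with GSI. Myeloid means were 1.51 to 1.56 with Mock and 1.58 to 1.68 with GSI. NK-cell means overlapped, and T-cell means were lower with GSI (2.15 to 2.20) than with Mock (2.24 to 2.46). The part of these in the Rec-1 results was not tested.

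The genes nearest to KLF2 in pattern were sought among 14469 genes, by the root mean square difference between the 6 group means after each gene was centred. The 5 nearest were SSPN (0.202), ZDHHC12-DT (0.203), CTDSP2 (0.206), CDKN2D (0.212) and CD79B (0.244), beside a spread of KLF2 itself over the groups of 0.67 (SD). In Rec-1 these 5 had changes of 1.40, 0.90, 1.06, 1.03 and 1.06, and in Mino and SP-49 of at most 0.31 and 0.52. The treated and untreated means entered the measure, so changes near those of KLF2 followed from the choice. SSPN encodes a protein of the dystrophin complex, CTDSP2 a phosphatase of the RNA polymerase II tail and CDKN2D an inhibitor of cyclin-dependent kinases. The gene most like S1PR1 was HIVEP1 (0.132), and those most like the other members were PIGS for ITGB7 (0.110), ANKRD37 for ITGA4 (0.115), IL10RA for GPR183 (0.450), PLBD1 for CCR7 (0.286), LINC01720 for CCR6 (0.0856), GFOD3P for CXCR4 (0.136) and SIGLEC10 for CXCR5 (0.160). These are measures of likeness over 6 group means. For KLF2 its Rec-1 rise weighs heavily in them, and for most other members their differences between lines do.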

How the data were processed

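RNA of the 3 lines was hybridised to 12 Affymetrix arrays of 54675 probe sets. The deposited values are on the log2 scale and were summarised and normalized between arrays by the authors, with RMA and limma named per the submitters' processing notes and versions not given. Base 2 was inferred from the range of the values. Of the probe sets, 41097 named 1 gene, 1801 several and 11777 none in the annotation used here, and symbols were updated by gene number for 41043. Those with several genes were not used. Low values were kept, and 5305 genes were under the median of all values in every group.

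A limma 3.58.1 model in R 4.3.3 (lmFit, eBayes with a constant prior variance) fitted 6 group means to all 12 arrays. The residual degrees of freedom were 6 and those of the prior 5.22. The 9 contrasts were GSI minus Mock in each line, the differences of these between lines, and the Mock differences between lines. Two-sided p-values were adjusted with the Benjamini-Hochberg method over 19775 genes (over 54675 probe sets where probe sets were tested) within each contrast, threshold 0.05. The median standard error of a change was 0.164. Intervals of 95% are for single genes. The pipeline was tested on simulated data. No 2 arrays shared more than 0.596% of values, so none was a copy, and arrays of 1 line correlated with r from 0.979 to 0.995.

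Named were all 9 genes, HES1 and MYC as checks, list genes past the threshold with GSI (at most 4 per list and contrast), and the genes nearest in pattern (5 for KLF2, 1 for each other). The members and lists were chosen with earlier results of these data known. In the lists, genes without a matching probe set were not analysed here. Motifs were read from RefSeq promoters of GRCh38.p14. Of the 9 genes 8 had a window, CCR7 had none, and those of CCR6, CXCR4 and CXCR5 were not used. Alternatives were probe sets tested singly or averaged per gene, removal of dim genes, a second quantile normalization, centring on array medians, a robust prior and an intensity trend together, a fit of the compared arrays alone, a replicate block, array weights, removal of the 2 arrays of narrowest signal range (the second GSI replicate in each of Rec-1 and SP-49), and removal of each array by itself. A group reduced to 1 array was given the spread of the other groups.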

Additional observations from a re-analysis of the deposited data

Results flagged for a closer look

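The GPR183 change with GSI differed between Rec-1 and SP-49 by 1.47 on the log2 scale in the test of the difference itself (limma adjusted p = 0.0212), and it stands out for that reason. In Rec-1 both GSI arrays were above both Mock arrays, and in SP-49 both were below.

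For 3 other differences, every GSI array lay above both Mock arrays in 1 line and below them in another, while the test of the difference did not pass. GPR183 was lower with GSI in SP-49 and higher in Mino, a difference of -1.06 (limma adjusted p = 0.303). CCR6 was higher with GSI in Rec-1 and lower in Mino, a difference of 0.95 (limma adjusted p = 0.243), at levels near or below the median of all values. CXCR4 was higher with GSI in Rec-1 and lower in SP-49 on probe set 217028_at, a difference of 0.65 (limma adjusted p = 0.259). On 209201_x_at and 211919_s_at the difference was smaller, at 0.38 and 0.33 (limma adjusted p = 0.577 and 0.637 over all probe sets). Their Rec-1 changes were 0.06 and -0.02 and their SP-49 changes -0.32 and -0.35.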

How the results depend on the processing

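In Rec-1 the count of 3 called genes became 0 with only the 4 Rec-1 arrays in the fit (KLF2 adjusted p = 0.0767, GPR183 0.067, ITGA4 0.103) and was 2 to 3 with 1 array left out. In SP-49 the count of 0 became 1, ITGA4, with the mean of the probe sets (-0.84, adjusted p = 0.0488) and with an intensity trend and a robust prior (adjusted p = 0.035). Under that prior the difference in response between Rec-1 and Mino called 1 gene, CXCR4 (adjusted p = 0.0285), and that between Rec-1 and SP-49 called 2, GPR183 and CXCR4 (0.0256). The latter count was 0 without both arrays of narrowest range (GPR183 adjusted p = 0.109; also ITGA4 in Rec-1, 0.0575) and 0 to 1 with 1 array left out. Mock counts stayed within 1.5 times. Whether equal replicate numbers were handled as pairs is not known. Replicate differences of Mock and GSI correlated at 0.0477 in Mino, 0.0694 in Rec-1 and -0.0111 in SP-49. These values cannot settle it, since they cover all probe sets, also those of low level. With the replicate number as a block the Rec-1 count was 3 and the list count 8 higher and 0 lower.

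Uncalled values changed sign as follows, and the cause was not tested. With the mean of probe sets, CXCR5 in Rec-1 was -0.29, KLF2 in SP-49 minus Mino 0.026 and ITGA4 in Rec-1 minus SP-49 0.19. With quantile normalization, CCR7 in Mino was 0.00090, CXCR5 in Rec-1 minus Mino 0.029, ITGB7 in Rec-1 minus SP-49 -0.031 and CXCR4 probe set 211919_s_at in Rec-1 0.10. With median centring, CCR7 in Mino was 0.019, S1PR1 in SP-49 minus Mino -0.012 and ITGB7 in Rec-1 minus SP-49 -0.011. Without both narrow arrays, CCR6 in SP-49 was 0.059 and ITGB7 in Rec-1 minus SP-49 -0.11. With 1 array left out, changes in Mino ran from -0.10 to 0.43 for CXCR5, -0.047 to 0.19 for S1PR1, -0.064 to 0.049 for CCR7, -0.39 to 0.078 for ITGA4, -0.23 to 0.089 for HES1, -0.17 to 0.25 for KLF2 probe set 226646_at and -0.25 to 0.38 for ITGA4 probe set 205885_s_at. In SP-49 they ran from -0.091 to 0.28 for CCR7 and -0.20 to 0.059 for CCR6. In Rec-1 they ran from -0.11 to 0.25 for KLF2 226646_at, -0.021 to 0.14 for CXCR4 209201_x_at, -0.11 to 0.072 for CXCR4 211919_s_at and -0.62 to 0.27 for ITGA4 243366_s_at. Differences in response ran from -0.38 to 0.16 for CXCR5 (Rec-1 minus Mino), from -0.098 to 0.14 for S1PR1, -0.16 to 0.035 for CXCR4 and -0.084 to 0.28 for CCR7 (SP-49 minus Mino), and from -0.057 to 0.084 for ITGB7 (Rec-1 minus SP-49). Mock differences ran from -0.47 to 0.0018 for ITGA4 (Rec-1 minus Mino), -0.076 to 0.12 for CCR6 (SP-49 minus Mino) and -0.023 to 0.38 for KLF2 (Rec-1 minus SP-49).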
